A study of Homo sapiens with 32 samples.

Results

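The 10 long noncoding RNA genes described here were MALAT1, NEAT1, NORAD, KCNQ1OT1, PVT1, MEG3, H19, MIR22HG, SNHG1 and GAS5, of 59679 genes in the RefSeq table of GRCh38.p14. They were chosen by name as nuclear or cancer-associated noncoding RNAs, and every called m6A peak that overlapped 1 of the 10 gene bodies by at least 1 bp was kept. Of 474004 peaks in 16 libraries, 646 met this rule, which was 30 to 51 peaks per library and 0.111% to 0.192% of a list. The study asked how the histone methyltransferase SETD2 affects the placement of m6A, using methylated RNA immunoprecipitation sequencing (MeRIP-seq), in which fragments pulled down with an m6A antibody are compared with the Input RNA. The cells were 786-O, a clear cell renal cell carcinoma (ccRCC) line, and RPTEC, hTERT-immortalized renal proximal tubule epithelial cells. Each cell line was represented by its unmodified parent (WT), the CRISPR clones SETD2KO-1 and SETD2KO-2, and SETD2KO-1R, a clonal line made from SETD2KO-1 by adding back full-length FLAG-SETD2, with 2 IP libraries per line. WT and SETD2KO-1R together form the SETD2-expressing group, and 4 SETD2KO and 4 SETD2-expressing libraries were set against each other in each cell line. Each SETD2KO or rescued line was 1 clone, so the effect of SETD2 and that of the clone cannot be fully told apart, and the 2 libraries of a line may be technical replicates.

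N6-methyladenosine (m6A) is written on nascent RNA by the METTL3-METTL14 complex and read by proteins that alter splicing, export, structure and decay. Many long noncoding RNAs carry it: MALAT1 is the abundant RNA of nuclear speckles, NEAT1 is the RNA around which paraspeckles assemble, NORAD is a conserved RNA that guards genome stability, and KCNQ1OT1 silences neighbouring imprinted genes in cis. Antibodies against m6A also bind m6Am, the related modified adenosine next to the cap, so a peak over a transcript start does not tell the 2 marks apart.

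The peak lists held 25710 to 39670 peaks per library in 786-O and 19249 to 31207 in RPTEC, and the files do not give the read depth of each library. Kidney epithelial markers carried peaks in both cell lines: 5 of 6 genes, among them PAX8, PAX2 and KRT8, had a peak in all 16 libraries. Of the 5 proximal tubule markers, GGT1 had a peak in all 16 libraries and CUBN in 1, and LRP2, AQP1 and SLC34A1 had none in any. Of the 4 ccRCC markers in the table, VEGFA and EPAS1 had a peak in all 16 libraries, VIM in 14 and CA9 in none. VEGFA had 3, 3, 3 and 2 peaks in the 786-O SETD2KO libraries and 5, 7, 7 and 4 in the SETD2-expressing ones, without overlap, a pattern that 0.749% of all gene bodies tested there shared. A missing peak does not show a missing transcript. The summed peak number of the kidney epithelial markers was 29 to 48 in SETD2-expressing and 32 to 55 in SETD2KO 786-O libraries, and 34 to 56 and 22 to 58 in RPTEC. The SETD2 gene carried 4 to 10 peaks in SETD2KO and 7 to 10 in SETD2-expressing 786-O libraries, and 4 to 6 and 7 to 11 in RPTEC, where the groups did not overlap (all SETD2KO libraries were below for 1.21% of all gene bodies tested there). Peak calls do not measure the protein or the edit, so these values do not test the knockout.

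Of the 10 genes, 5 had a peak in all 16 libraries: MALAT1, NEAT1, NORAD, KCNQ1OT1 and PVT1. Over all 59679 gene bodies this share was 8.78%, and over the 18303 genes of biotype lncRNA it was 2.57%. MIR22HG, the host transcript of miR-22, had a peak in 15 of 16 libraries. The other 4 were called rarely or never. MEG3, an imprinted noncoding RNA, had peaks only in the 2 RPTEC SETD2KO-1R libraries, and the snoRNA hosts SNHG1 and GAS5 had 1 peak each, both in 786-O SETD2KO-1R replicate 2. The SNHG1 peak also touched SLC3A2, and the GAS5 peak also touched ZBTB37, a protein-coding gene on the same stretch. H19, an imprinted RNA and the host of miR-675, had no peak in any library.

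The best peaks of MALAT1, NORAD and MIR22HG covered a transcript start listed by RefSeq in most libraries. MALAT1 (chr11:65497738-65506516, plus strand) has 2 listed starts, the lower end of its body and a second 1307 bp downstream, and the best MALAT1 peak covered the second in 16 of 16 libraries and the first in none. The single NORAD peak (gene at chr20:36045618-36050960, minus strand) covered its listed start in 13 of 16 libraries. For MIR22HG the best peak did so in 9 of the 15 libraries with a peak. The only SNHG1 peak did too, but 65 of its 329 bp lay in the gene and its summit was 161 bp before the start. Among all genes with a peak and a listed start, the best peak covered a start in 6.67% to 18.1% of genes per library. The windows below run from 250 bases before to 50 bases after the starts of MALAT1, NORAD and MIR22HG on the transcribed strand (RefSeq, GRCh38.p14), since they hold the starts that these peaks covered. Except for the narrow one of RPTEC SETD2KO-2 replicate 2, the NORAD peaks lay mostly downstream of their window, inside the gene, and that of RPTEC WT replicate 2 did not reach it. Capitals mark the pentamers of the m6A consensus that were searched, an A or G at each of the first 2 positions followed by ACT. The study's consensus, RRACH, also allows A or C at the last position, and those forms were not searched or marked. The MALAT1 window is chr11:65498795-65499094, the NORAD window is chr20:36050911-36051210 and the MIR22HG window is chr17:1716161-1716460.
MALAT1, second start: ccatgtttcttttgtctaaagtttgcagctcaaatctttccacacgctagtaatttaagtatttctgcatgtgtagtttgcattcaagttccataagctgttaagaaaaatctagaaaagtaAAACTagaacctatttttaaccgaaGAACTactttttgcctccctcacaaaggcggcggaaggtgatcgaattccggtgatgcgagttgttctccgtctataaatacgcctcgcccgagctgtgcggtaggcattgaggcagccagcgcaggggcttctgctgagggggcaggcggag
NORAD, listed start: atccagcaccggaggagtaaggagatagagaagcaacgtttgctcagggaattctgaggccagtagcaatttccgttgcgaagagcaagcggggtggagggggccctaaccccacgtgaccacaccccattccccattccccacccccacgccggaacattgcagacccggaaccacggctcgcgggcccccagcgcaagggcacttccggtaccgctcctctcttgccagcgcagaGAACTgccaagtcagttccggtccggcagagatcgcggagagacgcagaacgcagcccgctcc
MIR22HG, listed start: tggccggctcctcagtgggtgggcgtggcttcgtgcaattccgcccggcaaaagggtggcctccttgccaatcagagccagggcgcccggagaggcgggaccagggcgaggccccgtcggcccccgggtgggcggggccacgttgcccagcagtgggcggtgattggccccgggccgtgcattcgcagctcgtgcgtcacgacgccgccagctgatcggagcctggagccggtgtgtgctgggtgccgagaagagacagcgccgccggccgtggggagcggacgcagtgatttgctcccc
The MALAT1 window held 2 such pentamers, AAACT at position -128 and GAACT at position -103 relative to the second start, both of which lie inside the longer MALAT1 transcript. The NORAD window held 1, GAACT, at position -13 relative to the start, which is upstream of the annotated gene body. On the opposite strand there were 3 and 1. The MIR22HG window held 0 on either strand, though it holds GGACC and AGACA, which are among the forms not searched. Of all 35116 listed windows of this length, 62.3% held at least 1 of the 4 pentamers on the transcribed strand and 84.5% on either strand, so windows with and without them are both common.

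NEAT1 carried the peak with the highest score rank of the 10 genes in 14 of 16 libraries. The exceptions were RPTEC SETD2KO-1 replicate 1, where MALAT1 ranked 571 and NEAT1 590, and RPTEC SETD2KO-2 replicate 2, where MALAT1 ranked 259 and NEAT1 and NORAD both 472. Its body spans chr11:65422798-65445540, and in all 16 libraries the best peak covered the lower end of the body, where NEAT1 transcription begins, with the summit 40 to 86 bp outside it. Peaks were ranked by score within each list, rank 1 being the highest. In 786-O the NEAT1 peak ranked 12 and 71 in WT, 15 and 45 in SETD2KO-1, 59 and 65 in SETD2KO-2, and 1 and 275 in SETD2KO-1R. In RPTEC it ranked 161 and 65 in WT, 590 and 338 in SETD2KO-1, 130 and 472 in SETD2KO-2, and 393 and 226 in SETD2KO-1R. The ranks were lower in number in 786-O (median 52) than in RPTEC (median 282), with overlapping ranges, and the groups by SETD2 status overlapped in both cell lines. Among the 969 to 2068 peaks per library that touched a lncRNA gene and no protein-coding gene, the NEAT1 peak was the highest in 11 of 16 libraries and stood between 1 and 8 in all of them.

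**Figure D1:**
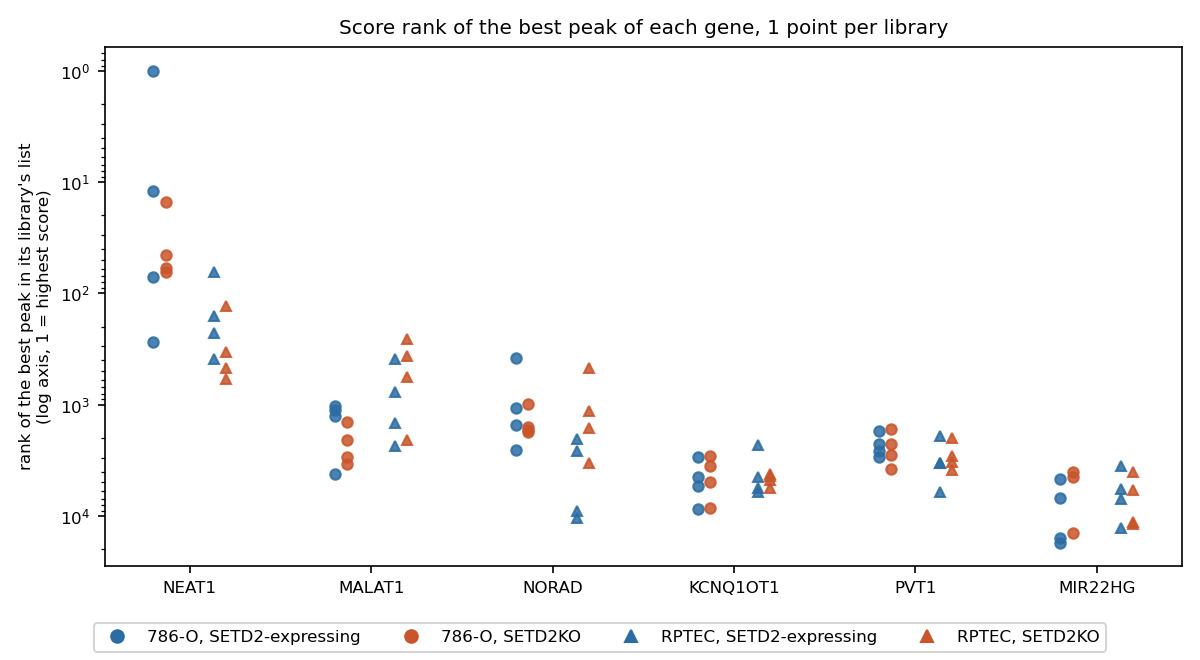
Rank of the best peak of 6 noncoding RNA genes in the list of each library (log axis, 1 is the highest score). Circles are 786-O and triangles RPTEC libraries, blue SETD2-expressing and orange SETD2KO. NEAT1 lies between rank 1 and 590 in all 16 libraries, and MIR22HG between 3563 and 17383 in the 15 libraries with a peak.

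Downstream of its start NEAT1 carried weaker peaks at recurring places. Summits within 200 bp of each other were grouped, which gave groups at 921 to 1106 bp (5 libraries), 1579 to 1585 bp (4), 2024 to 2042 bp (5) and 2263 to 2284 bp (4) from the lower end of the body. Further along, in the part carried by the long NEAT1 isoform that builds paraspeckles and not by the short one, a region at 17499 to 18000 bp was called in 11 libraries and one at 21652 to 22064 bp in 13. The summits of the latter lay at 21803 to 21889 bp in all 13 libraries, and the peaks overlapped the annotated microRNA gene MIR612. The median rank there was 14197, against 100.5 for the peak at the start. The region at 17499 bp was called in 4 of 4 SETD2KO and 1 of 4 SETD2-expressing 786-O libraries, but in 2 of 4 and 4 of 4 in RPTEC, so the order was opposite in the 2 cell lines and neither met the rule of all against none.

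**Figure D2:**
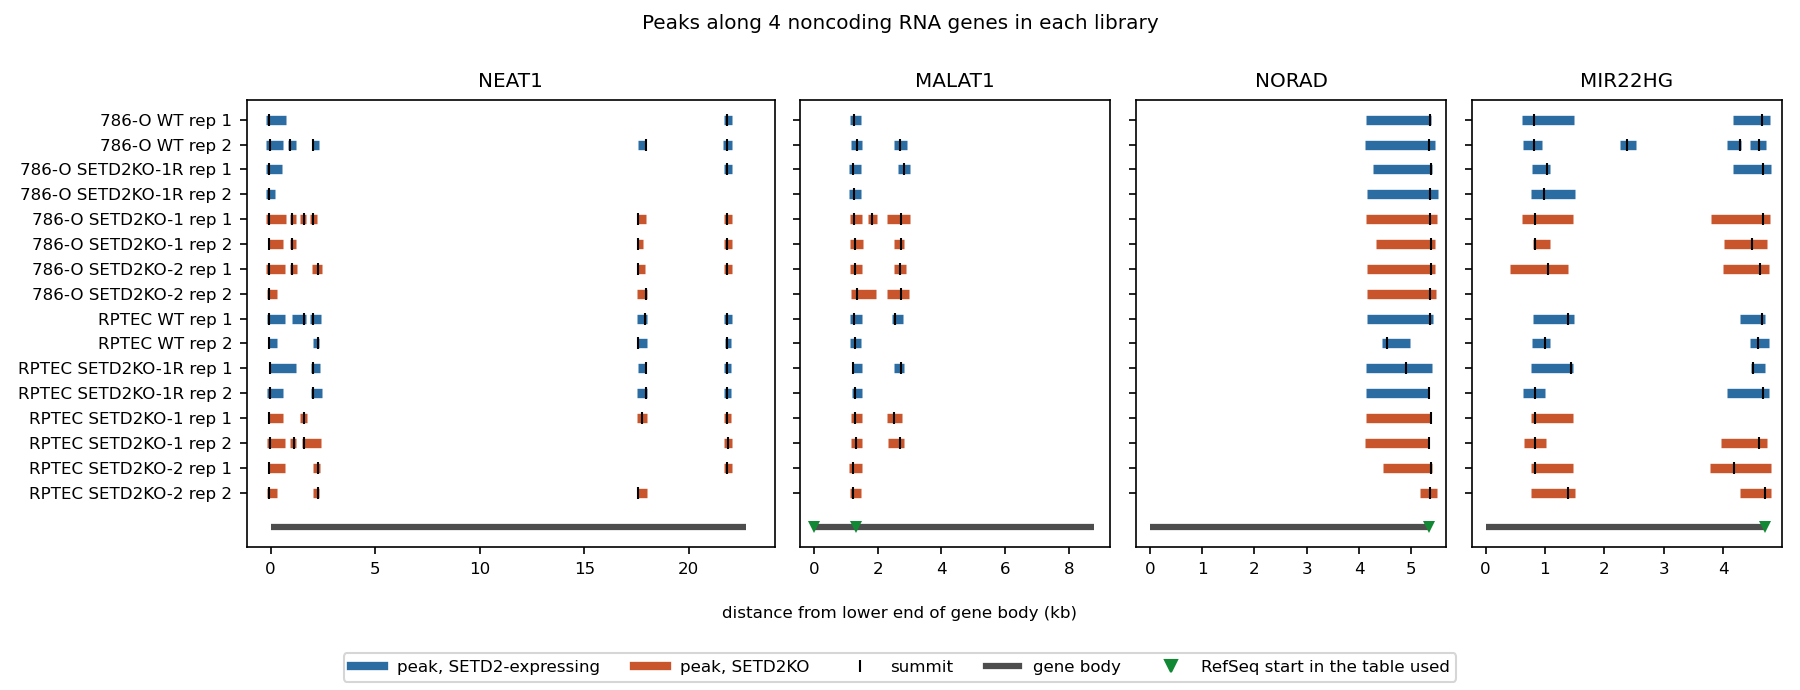
Peaks (bars) and summits (black ticks) along NEAT1, MALAT1, NORAD and MIR22HG in each of the 16 libraries, as distance in kb from the lower end of the gene body. Blue bars are SETD2-expressing and orange bars SETD2KO libraries, and green triangles mark the RefSeq starts listed in the table used, which has none for NEAT1. The peak at the lower end of NEAT1 and the MALAT1 peak at its second listed start are present in all 16 libraries.

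The peak over the second MALAT1 start had its summit 1223 to 1365 bp from the lower end, that is 84 bp before to 58 bp after that start. In RPTEC it ranked 259 to 2353 (median 672) and in 786-O 1036 to 4229 (median 1765), and these ranges overlapped. Its width was 316 to 404 bp in 15 libraries and 801 bp in 786-O SETD2KO-2 replicate 2. A second, weaker MALAT1 region with summits at 2515 to 2838 bp was called in 10 libraries: 4 of 4 SETD2KO and 2 of 4 SETD2-expressing in 786-O, and 2 of 4 in each group in RPTEC. Its median rank was 24475. Of 27 MALAT1 peaks 12, the 10 of this region among them, also lay in TALAM1, the antisense transcript of MALAT1, and without strand the 2 genes cannot be told apart. The remaining peak of MALAT1, with a summit at 1826 bp, was called in 786-O SETD2KO-1 replicate 1 only. No peak fell on the mascRNA at the 3′ end, the small RNA cut from the MALAT1 tail.

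NORAD carried a single wide peak in each of the 16 libraries. Its width was 1120 to 1356 bp in the 8 libraries of 786-O, with list medians of 371 to 433 bp, and it reached from at most 1223 bp inside the gene to at most 156 bp beyond the start. In RPTEC the width was 1211 to 1279 bp in 5 libraries, 939 bp and 327 bp in the SETD2KO-2 libraries and 535 bp in WT replicate 2. The NORAD peak was wider than a median of 97.6% of the peaks in its list, with a range of 32.3% to 98.8%. Its summit lay within 150 bp of the listed start in 14 libraries. The other two were RPTEC SETD2KO-1R replicate 1 and RPTEC WT replicate 2, with summits at 4900 and 4530 bp from the lower end and ranks of 8965 and 10542, against 384 to 3355 in the 14. NORAD was thus called over its first part only, in both cell lines and with or without SETD2, and covered 3.52% to 22.9% of the gene body.

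MIR22HG (chr17:1711504-1716210, minus strand) was called at both ends of its body and only once between them. A region at 410 to 1508 bp from the lower end was called in 15 libraries and a region at 3778 to 4811 bp, at the upper end next to the listed start, in 13. In 11 libraries a MIR22HG peak covered the start itself. The microRNA that MIR22HG hosts lies between them, at 2399 to 2483 bp, and gives the mature forms below (RefSeq, GRCh38.p14, with the seed, bases 2 to 8, in capitals), shown because miR-22 is the functional product of this transcript.
hsa-miR-22-3p: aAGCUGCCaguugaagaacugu
hsa-miR-22-5p: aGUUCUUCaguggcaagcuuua
They are at chr17:1713914-1713935 and chr17:1713952-1713973 on the minus strand, and a peak reached them in 1 of 16 libraries, 786-O WT replicate 2. MIR22HG was called with 2 peaks in 12 libraries, 4 in 786-O WT replicate 2, 1 in 786-O SETD2KO-1R replicate 2 and RPTEC SETD2KO-1 replicate 1, and 0 in 786-O SETD2KO-2 replicate 2. The region at the upper end was not called in the last 3.

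KCNQ1OT1 had 249 peaks over the 16 libraries, and all of them also lay in KCNQ1, the potassium channel gene to which KCNQ1OT1 is antisense, so strand cannot assign them. Their position can be described: KCNQ1 (chr11:2445008-2849105) had 249 peaks inside the KCNQ1OT1 interval (chr11:2608328-2699994) and 2 in the 312431 bp outside it. Per 100 kb this was 10.9 to 22.9 peaks inside (median 17.5) and 0 to 0.320 outside (median 0). The peaks formed 30 regions, of which 3 were called in all 16 libraries and 12 in at least 8. Those 3 lay at 24140 to 26486, 28876 to 32286 and 39962 to 42527 bp from the lower end, and 57.0% of all KCNQ1OT1 peaks had their summit in the middle when the body was divided into 3 equal parts.

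PVT1, a noncoding RNA gene next to MYC that is often co-amplified with it, had 260 peaks in a body of 306733 bp (chr8:127794524-128101256). They formed 60 regions, 24 of them called in 1 library. One region, at 102395 to 103711 bp from the lower end, was called in all 16 libraries, with peaks of a median 1029 bp. PVT1 peaks thinned out along the gene: of 3 equal parts of the body counted from the lower end, 62.3% had their summit in the first, 33.8% in the next and 3.85% in the last. PVT1 hosts several microRNAs, of which MIR1204, MIR1205 and MIR1206 lay under no peak and MIR1207 under 1 peak in 1 library.

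**Figure D3:**
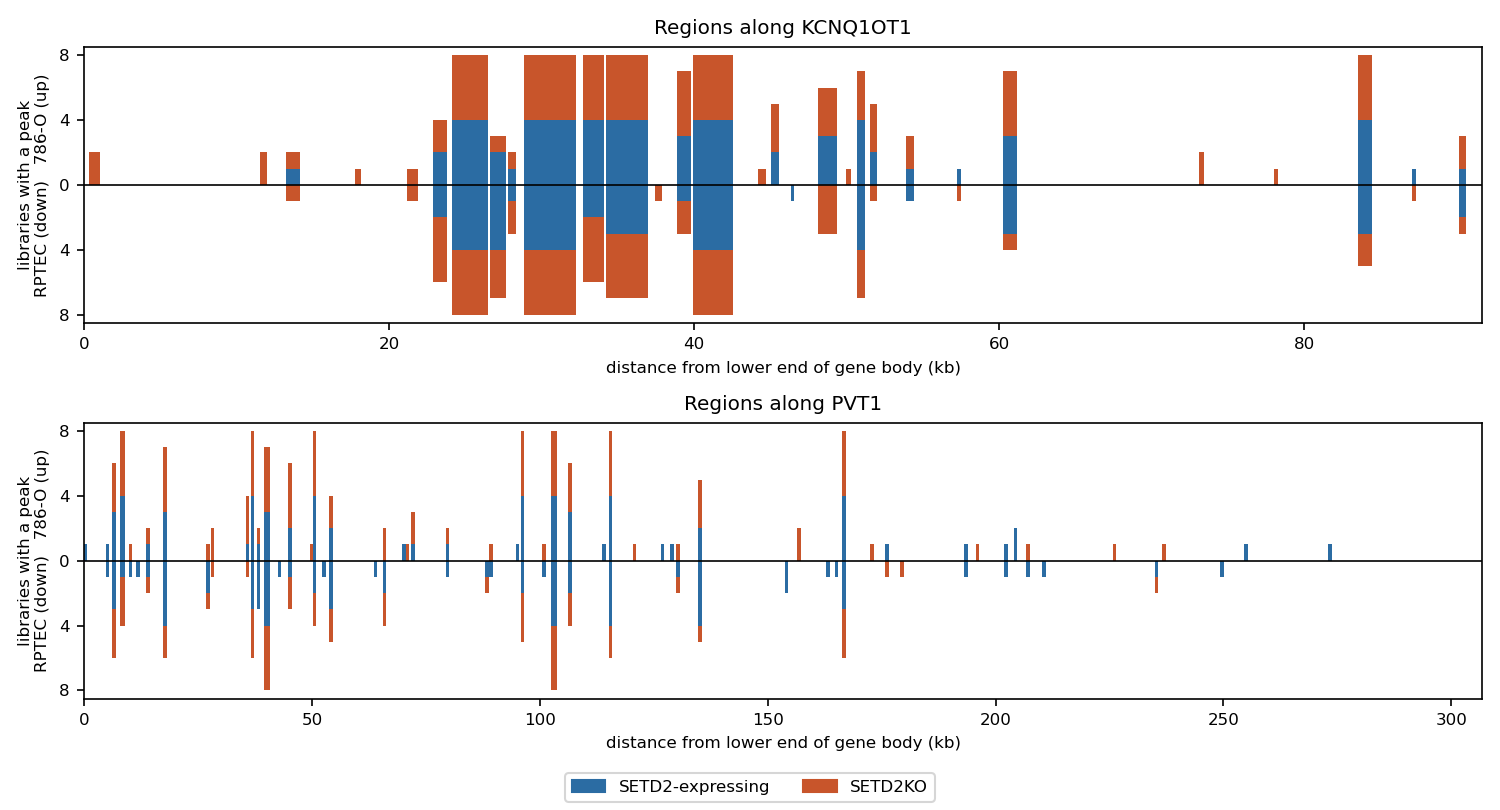
Number of libraries with a peak in each merged region along KCNQ1OT1 and PVT1, with 786-O above and RPTEC below the line, blue for SETD2-expressing and orange for SETD2KO, as distance in kb from the lower end of the gene body. 3 regions of KCNQ1OT1 and 1 of PVT1 reach 8 libraries on both sides.

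Merging the peaks of all 16 libraries gave 105 regions in the 10 genes. Of these 7 were called in all 16 libraries, against 4.25% of all 99258 regions, and 37 were called in 1 library only, against 37.2%. In 786-O none of 87 regions was called in all 4 SETD2KO and no SETD2-expressing library (0.478% of all regions called in 786-O) and none in the reverse pattern (0.15%). In RPTEC none of 76 was called in all SETD2KO libraries alone (0.281%) and none in all SETD2-expressing libraries alone (0.213%). No region was called in all 8 libraries of 1 cell line and none of the other, which held for 0.324% of all regions. At shares this small, 0 regions does not set the 10 genes apart from the rest.

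The number of peaks per gene was compared between SETD2KO and SETD2-expressing libraries with exact two-sided permutation tests over all gene bodies that had a peak. Libraries were permuted as single units although those of a line may be technical replicates. All p-values here therefore measure the spread between these libraries, and not that between independently made lines or between cell types. In 786-O, MALAT1 had 3 and 2 peaks in SETD2KO-1 and 2 and 2 in SETD2KO-2, against 1 and 2 in WT and 2 and 1 in SETD2KO-1R. The means were 2.25 ± 0.5 and 1.5 ± 0.577 (SD, n = 4 libraries each), the groups met at 2 peaks, and the exact permutation test gave p = 0.286. The difference of 0.75 peaks turned to -0.25 with peaks that also lay on another gene left out. NEAT1 had 6 and 4 peaks in 786-O SETD2KO-1 and 5 and 2 in SETD2KO-2, against 2 and 5 in WT and 2 and 1 in SETD2KO-1R, and these groups overlapped (exact permutation p = 0.314). In RPTEC the MALAT1 means were 1.5 in both groups, and NEAT1 had 4, 4, 3 and 3 peaks in SETD2KO and 5, 4, 4 and 4 in SETD2-expressing libraries (exact permutation p = 0.286). NORAD had 1 peak in every library.

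PVT1 came closest to separation. In 786-O it had 19 and 18 peaks in SETD2KO-1 and 22 and 19 in SETD2KO-2, against 18 and 18 in WT and 17 and 12 in SETD2KO-1R, a difference of 3.25 peaks (19.5 ± 1.73 against 16.3 ± 2.87, SD, n = 4 each, exact permutation p = 0.0857, adjusted p = 1). The 18 peaks of SETD2KO-1 replicate 2 equalled those of both WT libraries, and without that library the SETD2KO values of 786-O lay above all 4 others. In RPTEC PVT1 had 6 and 14 peaks in SETD2KO-1 and 13 and 15 in SETD2KO-2, against 17 and 18 in WT and 19 and 15 in SETD2KO-1R. The SETD2KO mean was lower by 5.25 peaks (12 ± 4.08 against 17.3 ± 1.71, SD, n = 4 each, exact permutation p = 0.0571, adjusted p = 1). The groups met at 15 peaks, and without SETD2KO-2 replicate 2 or without SETD2KO-1R replicate 2, the libraries with this number, they did not overlap. The difference of the 2 differences was 8.5 peaks (exact permutation p = 0.00245, adjusted p = 1 over 19661 genes), and 3.27% of all genes had an unadjusted p under 0.05 in this test. It was 1.5 peaks with an exact permutation p of 0.664 when each list was restricted to the same number of its highest peaks. With the upper 50% of each list it was 3.25 peaks with an exact permutation p of 0.201. List lengths were 28934 to 39670 in SETD2KO and 25710 to 36401 in SETD2-expressing 786-O libraries, and 19249 to 30614 and 23126 to 31207 in RPTEC. The restriction to the same number also removed these differences in length, and what changed the size of the PVT1 difference was not tested.

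KCNQ1OT1 had 20 and 14 peaks in 786-O SETD2KO-1 and 18 and 21 in SETD2KO-2, against 11 and 18 in WT and 20 and 13 in SETD2KO-1R (exact permutation p = 0.314). In RPTEC it had 18, 17, 10 and 15 in SETD2KO and 17, 11, 14 and 12 in SETD2-expressing libraries (exact permutation p = 0.600). The 786-O difference of 2.75 peaks turned to -0.75 with an equal number of peaks per list. The RPTEC difference of 1.5 peaks turned to -1 with SETD2KO-2 alone. The RPTEC covered length of KCNQ1OT1 was 9329 ± 1581 bp in SETD2KO and 6420 ± 1767 bp in SETD2-expressing libraries (SD, n = 4 each, exact permutation p = 0.0571, adjusted p = 0.808), with WT replicate 1 at 8227 bp above SETD2KO-2 replicate 1 at 7335 bp. Without either of these 2 libraries the groups did not overlap. MALAT1 peaks in 786-O covered 1366, 726, 781 and 1477 bp in SETD2KO and 349, 769, 772 and 374 bp in SETD2-expressing libraries (1088 ± 389 against 566 ± 236 bp, SD, n = 4 each, exact permutation p = 0.114, adjusted p = 0.841). Only SETD2KO-1 replicate 2, with 726 bp, lay within the range of the other group, and without it the groups did not overlap. They did not overlap either with the upper 50% or an equal number of the highest peaks per library. There the lowest SETD2KO value was 389 bp and the highest SETD2-expressing value 384 bp. With lists cut in these 2 ways, 2.72% to 3.82% of all gene bodies were separated by covered length.

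**Figure D4:**
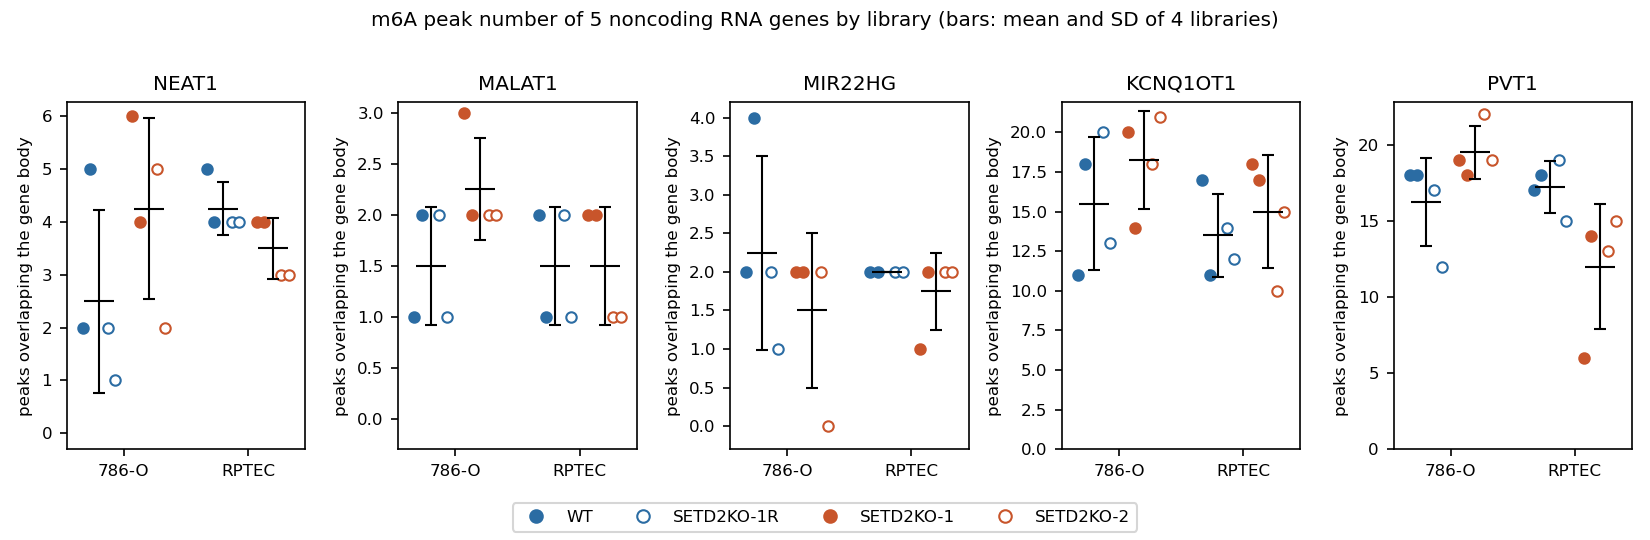
Number of peaks overlapping NEAT1, MALAT1, MIR22HG, KCNQ1OT1 and PVT1 in each library, 786-O on the left and RPTEC on the right of each panel. Points are libraries (filled blue WT, open blue SETD2KO-1R, filled orange SETD2KO-1, open orange SETD2KO-2), and black bars are the mean and SD of 4 libraries. The SETD2KO and SETD2-expressing points overlap or meet for every gene in both cell lines.

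By peak number, none of the 8 genes tested in 786-O and none of the 7 in RPTEC was separated between the groups, that is, had all 4 SETD2KO libraries above or all below all 4 SETD2-expressing libraries. Over all gene bodies tested, the shares above and below were 1.62% and 0.749% in 786-O and 1.05% and 1.21% in RPTEC. By covered length none of these 8 and 7 genes was separated either, against 3.32% above and 1.66% below in 786-O and 1.82% and 2.56% in RPTEC. With 4 against 4 libraries the exact test cannot give a p under 0.0286, and no gene of the whole table passed an adjusted p of 0.05 in these contrasts. An unadjusted permutation p under 0.05 needs complete separation here, so its counts repeat those of separation and are no further result. By peak number they were 0 of the 8 genes in 786-O and 0 of the 7 in RPTEC. Over all gene bodies they were 420 of 17755 in 786-O and 376 of 16622 in RPTEC. By covered length they were 0 and 0, 884 and 728. A count of 0 does not show that SETD2 status left m6A on these genes unchanged. With 1 library left out, 3.17% to 4.34% of all gene bodies were separated by peak number and 6.22% to 9.65% by covered length, against which the PVT1, KCNQ1OT1 and MALAT1 values without 1 library are to be read.

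Nor did any of the 9 genes with a peak pass the test between the cell lines, with 8 libraries each. For peak number, 3.23% of 19661 gene bodies were higher and 1.67% lower in 786-O at an adjusted p of 0.05, and for covered length 7.71% and 2.26%. None of the 9 had an unadjusted permutation p under 0.05 by peak number and 1, PVT1, did by covered length. PVT1 peaks covered 5056 to 12134 bp in 786-O (median 9108.5) and 3461 to 8336 bp in RPTEC (median 6778), with means of 8862 ± 1980 and 6662 ± 1453 bp (SD, n = 8 each, permutation p = 0.0213, adjusted p = 0.120). Without 786-O SETD2KO-1R replicate 2, the library with 5056 bp, it passed the adjusted threshold, as did 14.1% of all gene bodies in that setting, against 9.97% with all libraries. The median difference over all genes tested was 92.3 bp in the same direction. NEAT1 had 3.38 ± 1.85 peaks in 786-O and 3.88 ± 0.641 in RPTEC, and KCNQ1OT1 16.9 ± 3.72 and 14.3 ± 3.01 (SD, n = 8 each), with adjusted permutation p of 1 and 0.565. The KCNQ1OT1 difference of 2.63 peaks turned to -1.13 with the upper 50% of each list and -2.75 with an equal number of peaks per list, so it has no settled direction.

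The values of WT, SETD2KO-1 and the rescued line can be set side by side. MALAT1 went from 1 and 2 peaks in 786-O WT to 3 and 2 in SETD2KO-1 and 2 and 1 in SETD2KO-1R, and in RPTEC from 2 and 1 to 2 and 2 and then 2 and 1, while the other clone, SETD2KO-2, had 2 and 2 in 786-O and 1 and 1 in RPTEC. In RPTEC KCNQ1OT1 went from 17 and 11 to 18 and 17 and then 14 and 12, while SETD2KO-2 had 10 and 15. NEAT1 went in RPTEC from 5 and 4 to 4 and 4 and then 4 and 4. In RPTEC PVT1 went from 17 and 18 peaks in WT to 6 and 14 in SETD2KO-1 and 19 and 15 in SETD2KO-1R. In 786-O PVT1 went from 18 and 18 to 19 and 18 and then 17 and 12. In the same cells NEAT1 went from 2 and 5 to 6 and 4 and then 2 and 1, and KCNQ1OT1 from 11 and 18 to 20 and 14 and then 20 and 13. With 2 libraries per line a permutation test cannot give a p under 0.333, so none of these steps was tested.

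The other genes came from lists of related function, against a background of 23.9% of lncRNA genes and 32.9% of all genes with a peak in at least 1 library, and 2.57% and 8.78% with one in all 16. Of 14 further snoRNA host genes 10 had a peak and 2, SNHG16 and SNHG5, had one in all 16 libraries, with 1.19 and 1.00 peaks on average. 1 of the 14 passed the test between cell lines: SNHG29 had 3 to 7 peaks in 786-O (mean 5) and 0 to 2 in RPTEC (mean 1.13). None was separated by SETD2 status. Of 22 other cancer-associated or nuclear noncoding RNAs 17 had a peak and 4 had one in all 16 libraries, namely FTX (20.2 peaks on average) and JPX (9.44), both from the X-inactivation centre, LINC-PINT (8.25) and TUG1 (6.5). FTX had 29, 30, 19 and 21 peaks in RPTEC SETD2KO libraries and 13, 11, 15 and 12 in SETD2-expressing ones. JPX had 12, 12, 8 and 13 against 6, 7, 2 and 6. Both, 2 of the 22, were thus separated in RPTEC, against 1.05% of all gene bodies tested, and in 786-O neither was. Both lie on chromosome X, and a peak that touched both bodies counted for each. They are therefore not known to be separate cases. HCP5, UCA1 and LINC00511 are named after their values were seen: HCP5 had 2, 2, 1 and 2 peaks in 786-O SETD2KO and 0 in all 4 SETD2-expressing libraries (1 of the 22, against 1.62%), and UCA1 (4.5 against 2.13 peaks) and LINC00511 (3.25 against 0) were higher in 786-O than in RPTEC at an adjusted p of 0.05 (against 3.23%). Of genes for paraspeckle proteins, SFPQ had a peak in 16 libraries (2.06 peaks on average), RBM14 in 14 (1.69) and PSPC1 in 11 (1.5), and none of these 3 was separated by SETD2 status or passed the test between cell lines.

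Among 5363 genes with at least 2 peaks on average, the genes whose log2(peak number + 1) followed that of MALAT1 most closely over the 16 libraries were KCNQ1OT1 (Pearson r = 0.83), CERCAM (0.83) and SIPA1 (0.82). For NEAT1 they were KIF3C (0.85), ARHGAP29 (0.85) and TANC1 (0.82). NORAD had 1 peak throughout, so no correlation could be computed. These values describe the best of 5363 candidates over libraries that also share list length, and MALAT1 varied only between 1 and 3 peaks.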

How the data were processed

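MeRIP-seq peak lists of 16 IP libraries were analysed, and the 16 Input libraries were not analysed here. The submitters' processing notes name STAR, HTSeq and MACS2 and the build hg38, and the authors called peaks per IP library over Input after scaling to an E. coli RNA spike-in. Each deposited list gives peak position, summit and a score, which the authors' peak caller wrote and which was used only as a rank within a list. The lists hold no counts and no strand, and the methods state only a minimum depth, so the depth of each library is unknown here. Peaks were assigned to RefSeq gene bodies (GRCh38.p14) by an overlap of at least 1 bp, and peak number and covered length per gene were compared over libraries with exact two-sided permutation tests on all genes with a peak, with Benjamini-Hochberg adjustment (threshold 0.05). Groups came from the sample labels, and the 2 libraries of a line may be technical, so p-values measure the spread between these libraries. The 10 genes, the gene lists and the tests were chosen with earlier results of these data known. The text names the 10 genes, the up to 4 genes of each list with the highest mean peak number, genes that overlap 1 of the 10, and the 3 genes most like MALAT1, NEAT1 and NORAD in peak number, with exceptions stated beside them. Some results for listed genes are not reported here. Lists shared at most 0.0309% identical peaks, so all 16 were counted as separate libraries. SciPy 1.17.1, pandas 2.3.3 and NumPy 2.4.6 were run under Python 3.11.15, with figures from Matplotlib 3.10.9, and the tests were tested on simulated data. Alternatives covered score, list size, peak length, summit position, shared peaks, merging, the log2 scale, each clone alone, the replicate block and each library left out.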

Additional observations from a re-analysis of the deposited data

Results flagged for a closer look

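In 23 of 77 groups of values, 1 library lay far from the others of its group by Dixon's test at 95%, which chance alone does in about 1 in 20 groups of continuous values. Peak numbers are small whole numbers with many ties, so the share here is not comparable with that rate. 786-O SETD2KO-1R replicate 2, the library with the shortest 786-O list (25710 peaks), had 12 PVT1 peaks covering 5056 bp, against 17 to 18 peaks and 8729 to 9411 bp in the other SETD2-expressing libraries. It was also the only library with a SNHG1 peak (1 peak, 65 bp of the gene) and a GAS5 peak (1 peak, 319 bp). RPTEC SETD2KO-1 replicate 1 had 6 PVT1 peaks covering 3461 bp, against 13 to 19 peaks and 6360 to 8336 bp in the other RPTEC libraries, and 1 MIR22HG peak against 2 in the others. RPTEC SETD2KO-1R replicate 1 had 3 MEG3 peaks covering 913 bp, against 0 to 1 peaks and 0 to 393 bp. MIR22HG had 0 peaks in 786-O SETD2KO-2 replicate 2 and 2 in the other 786-O SETD2KO libraries. MALAT1 had 3 peaks in 786-O SETD2KO-1 replicate 1 against 2 in the other 786-O SETD2KO libraries. NEAT1 had 5 in RPTEC WT replicate 1 against 4 in the other RPTEC SETD2-expressing libraries. NORAD peaks covered 1017 bp in 786-O SETD2KO-1 replicate 2 (other 786-O SETD2KO libraries 1199 to 1214). They covered 1074 bp in 786-O SETD2KO-1R replicate 1 (other 786-O SETD2-expressing libraries 1200 to 1223). In RPTEC WT replicate 2 they covered 535 bp (other RPTEC SETD2-expressing libraries 1201 to 1218). The RPTEC SETD2KO-2 libraries had 892 and 188 bp. Why these libraries differ was not tested.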

How the results depend on the processing

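No gene of the 10 was separated by SETD2 status as reported, and the count rose to 1 or 2 in some settings, for which the cause was not tested. By covered length in 786-O it was 1 (MALAT1) with the upper 50% of each list or an equal number of peaks, and in RPTEC 1 (KCNQ1OT1) with an equal number, where 2.72% to 3.82% of all gene bodies were separated. With SETD2KO-1 alone it was 1 in 786-O by covered length (PVT1), and in RPTEC 1 by number (PVT1) and 2 by covered length (MALAT1, KCNQ1OT1). With SETD2KO-2 alone it was 1 by number (PVT1) and 1 by covered length (MALAT1) in 786-O, and 1 (NEAT1) and 1 (MIR22HG) in RPTEC. With 4 against 2 libraries no p can go under 0.0667, and 6.09% to 7.43% of all gene bodies were separated by number and 11.8% to 15.04% by covered length. Leaving out 1 library gave 0 to 1 in each contrast, with 3.17% to 4.34% of all gene bodies separated by number and 6.22% to 9.65% by covered length. By number it was 1 (PVT1) without 786-O SETD2KO-1 replicate 2, RPTEC SETD2KO-2 replicate 2 or RPTEC SETD2KO-1R replicate 2. By covered length it was 1 without 786-O SETD2KO-1 replicate 2 (MALAT1), 786-O SETD2KO-2 replicate 2 (PVT1), RPTEC WT replicate 1 or SETD2KO-2 replicate 1 (KCNQ1OT1), or RPTEC SETD2KO-1R replicate 2 (PVT1). Between cell lines it was 0 to 1, with PVT1 passing in covered length without 786-O SETD2KO-1R replicate 2. The replicate block left all counts of the 10 genes at 0 and the PVT1 difference of differences at 8.5 peaks (exact permutation p = 0.00617, adjusted p not under 0.05). Replicate numbers did not pair the libraries, whose deviations from the group means correlated at -0.06 to 0.16 in 786-O and -0.17 to 0.16 in RPTEC. Differences in peak number that changed sign were those of KCNQ1OT1 between 786-O and RPTEC (2.63, to -1.13 with the upper 50% and -2.75 with an equal number), of KCNQ1OT1 in 786-O by SETD2 status (2.75, to -0.75 with an equal number), in RPTEC (1.5, to -1 with SETD2KO-2 alone) and in the difference of differences (1.25, to -4 with an equal number and -0.42 to 2.75 leaving out 1 library). The MIR22HG difference of differences was -0.92 to 0.0833 leaving out 1 library. With peaks on another gene left out, MALAT1 changed to -0.25 in 786-O, -0.125 between cell lines and -0.25 in the difference of differences, and KCNQ1OT1 had no value. Over all genes, the count passing between cell lines by number was 964, and 168 with the upper 50%, 558 with an equal number and 615 without shared peaks. By covered length it was 1961, and 766 and 937 with the first 2 of these.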
